A study of Mus musculus with 4 samples.

Results

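Glucose enters a cell through facilitative transporters and is split to pyruvate in the cytosol by glycolysis, which yields ATP without oxygen. Hexokinase traps glucose as glucose 6-phosphate, phosphofructokinase commits it to the pathway, and later steps up to pyruvate kinase recover the energy. Lactate dehydrogenase then turns pyruvate into lactate and returns NAD+ to the pathway. Hematopoietic stem cells (HSCs) in the bone marrow are known for relying on glycolysis while they are quiescent, and hypoxia-inducible factor (HIF) is a well known activator of these genes.

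The expression of 10 genes of this route was examined in sorted HSCs with and without Gfi1b, a transcriptional repressor of HSCs and of the megakaryocyte and erythroid lineages. The genes were the transporters *Slc2a1* and *Slc2a3* and the enzyme genes *Hk2*, *Pfkp*, *Aldoa*, *Gapdh*, *Pgk1*, *Eno1*, *Pkm* and *Ldha*, chosen by name, out of 37140 genes listed for all libraries. RNA-seq was available for 4 libraries from C57Bl6 mice, with 1 library each of Gfi1b WT HSCs, Gfi1b KO HSCs, Gfi1b WT HSC CD41low CD9low cells and Gfi1b KO HSC CD41low CD9low cells, all sorted from tibiae, femora and humeri. HSCs were gated as Lin- cKit+ Sca1+ Cd48- CD150+ and the second population, called CD41low/CD9low HSCs here, was additionally low for CD41 and CD9. By the study's methods the KO mice carried Rosa-Cre with Gfi1b fl/fl and the controls Rosa-Cre with Gfi1b wt/fl, and both received tamoxifen. The series description instead gives floxed mice with or without ROSA-Cre, and the sample titles write Gfi1 where the genotype labels write Gfi1b. Rosa-Cre acts in all cells of the mouse, so that the deletion was not limited to HSCs. The bone marrow of several mice was pooled before sorting, and the age of the mice was not given in the sources used here.

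The libraries held 12732079 to 50781007 counts on genes. With 1 library for each genotype and population there was no replicate within a population, and KO and WT are therefore compared there by their ratio, with an exact (Clopper-Pearson) 95% interval that covers counting error only. Counts were scaled by size factors of each pair of libraries. Ratios above 1.5 were called up and those below 0.6 down, the cutoffs of the study. All 10 genes were well covered, with 639 to 26854 counts in each library. In bulk RNA of sorted cells, fewer cells with a transcript and less of it in each cell cannot be told apart.

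Facts of the libraries themselves bear on what follows. The count of *Gfi1b* over the whole gene was higher in the KO libraries (49910 against 9256 in HSCs, 9741 against 611 in the other population), and a count over the whole gene does not separate the deleted exons, so it is no check of the deletion. All 12 HSC and progenitor markers had counts in every library. Of these, 2 were called up and 0 down in KO HSCs, and 2 up and 0 down in KO CD41low/CD9low HSCs. By the test described below 2 were higher and 1 lower in KO, and 4 were higher and 3 lower in CD41low/CD9low HSCs. The 14 megakaryocyte and platelet markers were all lower in CD41low/CD9low HSCs by the same test, with a summed level of 581 to 692 CPM (gene counts scaled to the library total) against 1850 to 2571 CPM in HSCs, and 2 of them were at 0 in WT and 1 in KO CD41low/CD9low HSCs. Of all genes tested 13.7% were lower there. The list includes *Itga2b*, which encodes CD41, and *Cd9*, the markers for which this population was sorted low, so their direction was set by the gate. These 14 markers also moved with genotype, with 5 of 14 called up and 1 down in KO HSCs (1850 CPM in WT, 2571 CPM in KO), 6 of 13 up and 1 down in KO CD41low/CD9low HSCs (581 and 692 CPM), and 4 higher and 1 lower in KO by the same test. Of 19 immediate-early genes 18 were called down in KO HSCs, their sum being 5784 CPM in WT and 2051 CPM in KO HSCs, against 767 and 762 CPM in CD41low/CD9low HSCs. In KO CD41low/CD9low HSCs 11 of 12 granulocyte and monocyte markers were called down, from a sum of 1518 to 562 CPM. Of 10 erythroid markers with enough counts there, 8 were called down and 1 up, and the sum of that list was 904 CPM in WT and 724 CPM in KO. In KO HSCs 2 of 12 granulocyte and monocyte markers were called up and 0 down (696 CPM in WT, 747 CPM in KO). Of 11 erythroid markers 4 were called up and 4 down in KO HSCs (994 CPM in WT, 506 CPM in KO). *Flt3* and *Cd34*, which mark progenitors, had KO/WT ratios of 1.1 and 0.738 in HSCs and of 0.398 and 0.767 in the other population. The 8 lymphoid markers summed to 41.9 to 70.3 CPM. The part of these differences in the results below was not tested.

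The promoters of several of these genes hold the letters ACGTG, the core that HIF recognizes, and stretches around it are shown because they lie before the starts of genes whose levels are compared here. RefSeq promoters (GRCm38.p6, 250 bases before to 50 bases after the start) were found for 9 of the 10 genes. Searched on both strands as ACGTG or CACGT, the core was found in 8 of 15 promoters, belonging to 7 genes, and in 19.6% of all 32851 promoters. It overlaps the E-box CACGTG, which counts on both strands and occurs in 7.15% of all promoters, and among these genes in 1, an upstream promoter of *Ldha*. The capitals mark the core, and positions count back from the first transcribed base. A CACGTG holds the core on both strands, so that -48 and -47 of *Ldha* mark the same site. Overlapping promoters of *Aldoa* likewise share the same site.
Slc2a1, chr4:119108689-119108733, + strand, core at -36: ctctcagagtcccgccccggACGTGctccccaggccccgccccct
Hk2, chr6:82774482-82774526, - strand, core at -52: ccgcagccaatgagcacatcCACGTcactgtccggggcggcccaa
Pgk1, chrX:106186930-106186993, + strand, cores at -150 and -131: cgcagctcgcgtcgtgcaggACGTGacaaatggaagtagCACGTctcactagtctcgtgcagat
Ldha, chr7:46845736-46845794, + strand, cores at -48, -47 and -34: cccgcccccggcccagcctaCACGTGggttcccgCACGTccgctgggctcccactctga
*Hk2* had a further core at -226 and *Ldha* a further CACGTG at -145. The promoters of *Pfkp* and *Eno1* held no match. AATC, the core of the Gfi1b motif, was searched as AATC or GATT and found in 7 of the 15 promoters, of 6 genes, against 73.1% of all promoters. A match is a description of the sequence only.

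The genes differed widely in level. Per kb of transcript, the WT HSC library held 299 CPM of *Ldha* and 9.81 CPM of *Slc2a1*, the genes at the ends of the order there. *Pkm* (214), *Gapdh* (187) and *Aldoa* (182) followed *Ldha*, then *Pgk1* (73.6), *Slc2a3* (69.2), *Eno1* (53.7), *Pfkp* (29.0) and *Hk2* (20.4), all in CPM per kb. In WT CD41low/CD9low HSCs *Pkm* led with 380 CPM per kb, before *Aldoa* with 252 and *Ldha* with 237. Without replicates the spread of these levels is unknown, so that the order of close neighbours, such as *Gapdh* and *Aldoa* in WT HSCs, cannot be read.

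**Figure D1:**
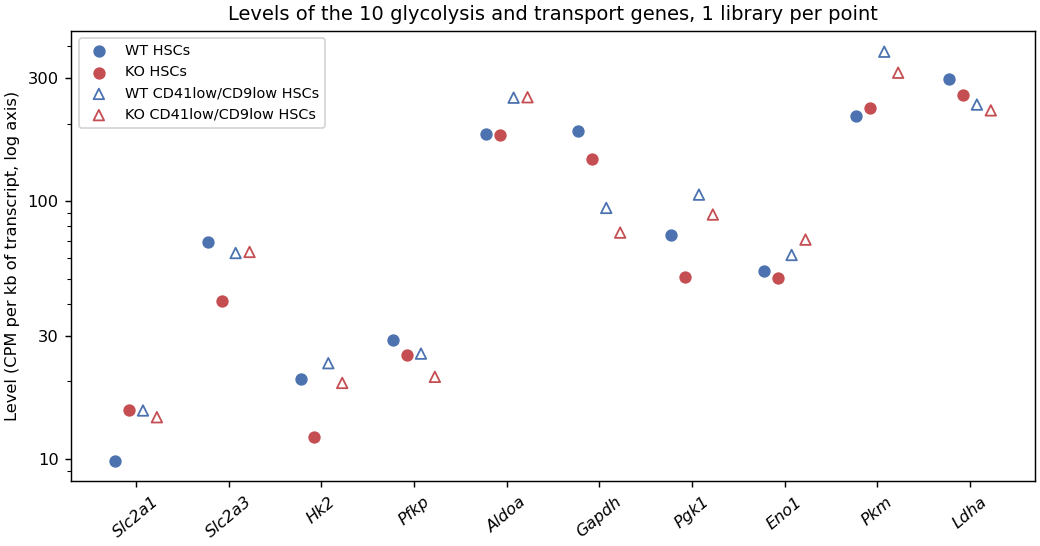
Level of each gene in CPM per kb of its principal transcript (vertical log axis) in the 4 libraries, with circles for HSCs and triangles for CD41low/CD9low HSCs, blue for WT and red for KO. Ldha, Pkm and Aldoa lay at 180 CPM per kb or above in every library, and Slc2a1, Hk2 and Pfkp at 29.0 or below.

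Part of this order depends on how reads of copies were counted. Of the windows of 50 bases in the transcript of *Gapdh*, 82.5% recurred in transcripts of 222 other genes. The type of gene was looked up only for the 200 of them in the count tables, and 192 of those were annotated pseudogenes. The shares of recurring windows were 72.2% for *Eno1*, 68.0% for *Pgk1*, 30.5% for *Pkm*, 17.1% for *Ldha* and 13.9% for *Aldoa*. No window of *Slc2a1*, *Slc2a3*, *Hk2* or *Pfkp* recurred. Reads that aligned to more than 1 place numbered 96.2 to 121.6 for every 100 gene counts, and were kept apart from the gene counts. Per kb of windows without a copy, *Gapdh* would stand at 1106 CPM in WT HSCs and lead that library, before *Ldha* with 372 and *Pkm* with 314. The levels of *Gapdh*, *Eno1*, *Pgk1* and *Pkm* are therefore uncertain. *Pfkp* shares exon bases with *Pitrm1* and *Gapdh* with *Iffo1* on the opposite strand, and the strand setting of the counting was not given in the sources used here.

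The first comparison asked whether loss of Gfi1b changed these genes in HSCs. *Slc2a1* was called up and *Slc2a3* down in KO HSCs, and the enzyme genes lay within the cutoffs. All genes with at least 10 counts in the pair gave 14.1% up and 10.3% down, and genes with at least 1000 counts, to which all 10 belong in HSCs, gave 6.34% up and 2.03% down, so that 1 of 10 in each direction was close to the first background, and a single gene is the smallest count that could exceed the second. The median log2 ratio of the 10 genes was -0.19, beside 0.00 over all 15910 genes.

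The ratios of the transporters lay on opposite sides of 1 in HSCs. *Slc2a1* (ENSMUSG00000028645, chr4:119108711-119137983, mm10), which encodes a basal glucose transporter found in most tissues, had 1624 counts in WT and 2106 in KO HSCs, or 32.0 and 50.5 CPM. Its ratio was 1.6 (95% interval 1.5 to 1.71). Among CD41low/CD9low HSCs it had 50.2 CPM in WT and 47.3 in KO, with a ratio of 0.943 (0.851 to 1.05). The WT HSC library was thus the one library with a low level of *Slc2a1*, while the other 3 lay close together.

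*Slc2a3* (ENSMUSG00000003153, chr6:122727809-122801640), a transporter of high glucose affinity known from neurons and blood cells, had 13913 counts in WT and 6754 in KO HSCs, or 274 and 162 CPM. Its ratio of 0.599 (0.582 to 0.617) lay just inside the cutoff of 0.6. In CD41low/CD9low HSCs the levels were 249 CPM in WT and 251 CPM in KO, a ratio of 1.01 (0.966 to 1.06). Here the KO HSC library was the one that stood below the other 3.

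*Slc2a3* was the main transporter transcript in all libraries. Among the 5 transporter genes *Slc2a1*, *Slc2a3*, *Slc2a8*, *Slc2a9* and *Slc2a10*, compared per kb, it made up 73.6% in WT HSCs and 57.1% in KO HSCs, whereas *Slc2a1* went from 10.4% to 21.6%. In the CD41low/CD9low libraries, WT first, the share of *Slc2a3* was 65.6% and 66.9%, and that of *Slc2a1* 16.1% and 15.3%. *Slc2a9*, a urate and hexose transporter, held 9.23% to 13.6%.

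*Hk2* (ENSMUSG00000000628, chr6:82725025-82774454), the inducible hexokinase that can bind to mitochondria, had 5720 counts in WT and 2807 in KO HSCs, or 113 and 67.3 CPM. The ratio of 0.606 (0.579 to 0.634) lay just outside the cutoff, and its interval overlapped that of *Slc2a3*. In CD41low/CD9low HSCs *Hk2* had 130 CPM in WT and 109 CPM in KO, with a ratio of 0.839 (0.786 to 0.896). *Hk2* was lower in the KO library of both populations. It was not the main hexokinase transcript, since the constitutive *Hk1* held 61.1% to 80.0% of the hexokinase transcripts per kb and *Hk2* 11.4% to 16.0%.

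*Pfkp* (ENSMUSG00000021196, chr13:6579768-6648777), the platelet type subunit of phosphofructokinase, had 120 CPM in WT and 104 in KO HSCs, and 106 and 86.3 in the corresponding CD41low/CD9low libraries. Its ratios were 0.88 (0.847 to 0.915) and 0.816 (0.759 to 0.877). The liver type *Pfkl* was the main subunit transcript, with 45.0% to 56.3% per kb, and *Pfkp* made up 25.1% and 23.4% in HSCs and 16.9% and 15.2% in CD41low/CD9low HSCs, WT first.

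*Aldoa* (ENSMUSG00000030695, chr7:126795234-126800751), the aldolase of most tissues, had a nearly equal level in WT and KO, with 275 and 272 CPM in HSCs and 381 and 382 CPM in CD41low/CD9low HSCs. The ratios were 1.01 (0.981 to 1.03) and 1.0 (0.968 to 1.04), so that counting error alone allowed a difference of a few percent. *Aldoa* accounted for 96.1% to 96.9% of the aldolase transcripts per kb, beside *Aldoc*.

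*Gapdh* (ENSMUSG00000057666, chr6:125161715-125166467), which oxidizes glyceraldehyde 3-phosphate and is often used as a reference gene, had 265 CPM in WT and 208 in KO HSCs, and 134 and 107 in the corresponding CD41low/CD9low libraries. The ratios were much alike, 0.794 (0.773 to 0.816) and 0.803 (0.753 to 0.857). *Pgk1* (ENSMUSG00000062070, chrX:106187100-106203699), the kinase of the first ATP-yielding step, had 134 and 92.9 CPM in HSCs and 193 and 162 CPM in CD41low/CD9low HSCs, WT first. Its ratios of 0.701 (0.674 to 0.729) and 0.838 (0.795 to 0.884) were both below 1.

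*Eno1* (ENSMUSG00000063524, chr4:150236721-150248879), the enolase of most tissues, had 109 CPM in WT and 102 in KO HSCs, and 125 and 144 in the corresponding CD41low/CD9low libraries. Its ratio was 0.949 (0.912 to 0.988) in HSCs. In CD41low/CD9low HSCs it was 1.15 (1.08 to 1.22), the one ratio of the latter population whose interval lay above 1. Beside *Eno2* and *Eno3* it held 81.0% to 86.8% of the enolase transcripts per kb.

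*Pkm* (ENSMUSG00000032294, chr9:59656368-59679375), which encodes the pyruvate kinases M1 and M2 that a count per gene does not separate, had 519 CPM in WT and 557 in KO HSCs, and 924 and 767 in the corresponding CD41low/CD9low libraries. The ratio was above 1 in HSCs, at 1.09 (1.07 to 1.11), but below it in CD41low/CD9low HSCs, at 0.831 (0.811 to 0.852). *Ldha* (ENSMUSG00000063229, chr7:46841475-46855627), the lactate dehydrogenase subunit that favours lactate, had 529 and 454 CPM and 419 and 398 CPM in the same order. Its ratios were 0.87 (0.854 to 0.886) and 0.95 (0.917 to 0.984).

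**Figure D2:**
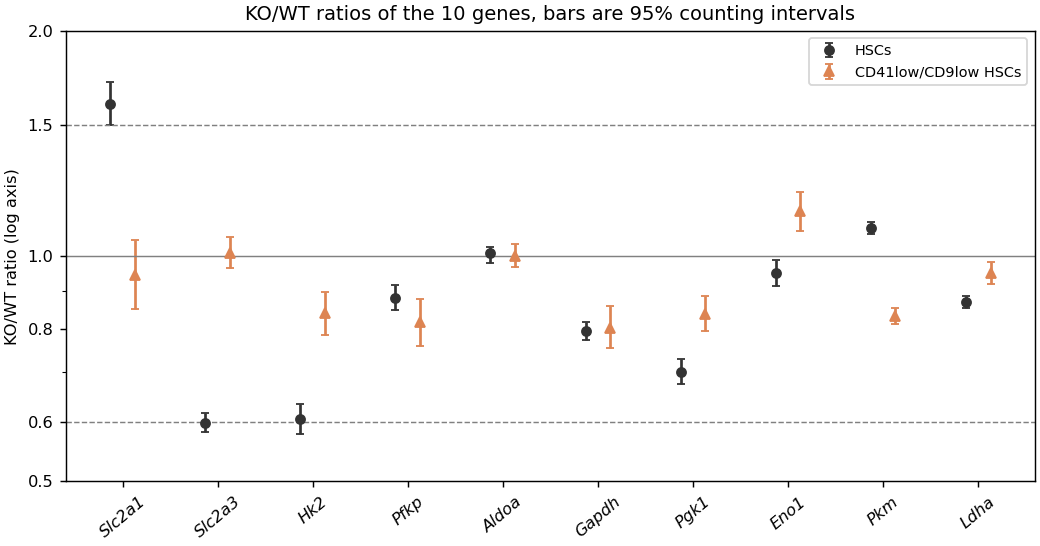
KO/WT ratio of each gene (vertical log axis) in HSCs (black circles) and CD41low/CD9low HSCs (orange triangles), with bars for the 95% counting interval and dashed lines at the cutoffs of 1.5 and 0.6. In HSCs Slc2a1 lay above 1.5 with 1.6, and Slc2a3 with 0.599 and Hk2 with 0.606 lay at the lower cutoff, while in CD41low/CD9low HSCs the ratios ran from 0.803 to 1.15.

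In CD41low/CD9low HSCs none of the 10 genes passed a cutoff, where all genes with at least 10 counts gave 13.5% up and 12.0% down. Among genes with at least 1000 counts, to which 9 of the 10 belong there, 2.14% were up and 0.285% down. The median log2 ratio of the 10 genes was -0.17, beside 0.01 over all 14844 genes. The counting interval lay below 1 for 7 genes in HSCs and for 6 in CD41low/CD9low HSCs, above 1 for 2 and 1, and included 1 for 1 and 3. The share of all genes with such intervals was not computed, so these numbers cannot be read as particular to the 10 genes.

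The ratios differed between the populations by more than counting error for several genes, which was not a test of replicates. How many of all genes differed in this way was not computed. The log2 ratio of *Slc2a1* was lower in CD41low/CD9low HSCs than in HSCs by a difference of -0.76 (-0.94 to -0.59), and that of *Pkm* by -0.39 (-0.43 to -0.34). It was higher for *Slc2a3* by 0.75 (0.68 to 0.83), for *Hk2* by 0.47 (0.36 to 0.58), for *Eno1* by 0.27 (0.17 to 0.38), for *Pgk1* by 0.26 (0.16 to 0.35) and for *Ldha* by 0.13 (0.07 to 0.18). For *Pfkp*, *Aldoa* and *Gapdh* the interval of the difference included 0.

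A genotype effect shared by both populations was tested over the 4 libraries with edgeR's quasi-likelihood test and population as covariate, which left 1 residual degree of freedom. None of the 10 genes passed an adjusted p of 0.05, where 1.62% of the 16262 genes tested were higher and 1.19% lower in KO. *Hk2* came nearest, with a log2 change of -0.50 ± 0.16 (SE) and an edgeR adjusted p of 0.064, which ranged from 0.0493 to 0.492 over the alternatives. *Pgk1* had -0.39 ± 0.16 (edgeR adjusted p = 0.212), *Slc2a3* -0.37 ± 0.15 (0.239) and *Gapdh* -0.33 ± 0.15 (0.356). At an unadjusted edgeR p under 0.05 these 4 genes were lower, as were 4.93% of all genes (5.86% were higher), and DESeq2 also passed 0 of the 10. An exact permutation test of 2 against 2 libraries that ignores population cannot go below 0.333. The estimated prior degrees of freedom were infinite in this fit, so that the disagreement of a gene between the populations did not enter its own test.

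The second comparison asked how CD41low/CD9low HSCs differ from HSCs, over both genotypes in the same fit. *Pkm*, *Pgk1* and *Aldoa* were higher in CD41low/CD9low HSCs and *Gapdh* was lower, where 9.11% of all genes tested were higher and 13.7% lower. The labels and the study's methods name no limit on CD41 or CD9 for the HSC gate, whereas its results call these cells positive for both markers, so that whether cells of the second kind are in both populations is not known. The pools of mice may be the same. The populations were also counted on different lists of genes.

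*Pkm* had 924 and 767 CPM in CD41low/CD9low HSCs and 519 and 557 CPM in HSCs, a log2 difference of 0.58 ± 0.14 (edgeR adjusted p = 3.8e-04). *Pgk1* differed by 0.60 ± 0.16 (edgeR adjusted p = 0.00107) and *Aldoa* by 0.42 ± 0.15 (edgeR adjusted p = 0.0237). For each of them both libraries of CD41low/CD9low HSCs lay above both of HSCs. *Gapdh* differed by -1.03 ± 0.15 (edgeR adjusted p = 8.3e-10), and both of its libraries lay below. With the bias-adjusted form of the edgeR fit, which was chosen after seeing the data, the adjusted p was 0.0169 for *Pkm*, 0.013 for *Pgk1*, 0.0459 for *Aldoa* and 5.7e-04 for *Gapdh*.

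The copies noted above, which make up 82.5% of the windows of *Gapdh* and 68.0% of those of *Pgk1*, were searched in the same annotation for all libraries. The count tables differed, and some copies of *Gapdh* were listed only for CD41low/CD9low HSCs, such as *Gm4654* with 12 counts in WT and 21 in KO. Reads with more than 1 place were 111.8 and 121.6 for every 100 gene counts in HSCs, WT first, and 104.6 and 96.2 in the other population. The part of the copies and of such reads in the difference of *Gapdh* was not tested. *Hk2* (0.38 ± 0.16, edgeR adjusted p = 0.0684), *Ldha* (-0.33 ± 0.14, 0.089), *Pfkp* (-0.29 ± 0.16, 0.199), *Eno1* (0.29 ± 0.16, 0.201), *Slc2a3* (0.19 ± 0.15, 0.441) and *Slc2a1* (0.21 ± 0.19, 0.492) did not pass.

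Isoforms of the same steps shifted between the populations as well. *Ldhb*, the subunit that favours pyruvate, was 1.23 higher on the log2 scale in CD41low/CD9low HSCs (edgeR adjusted p = 2.9e-10), and the share of *Ldha* among both per kb was 78.6% and 80.3% there against 90.4% and 93.2% in HSCs, WT first. *Hk3*, a hexokinase of myeloid cells, was 1.56 higher (edgeR adjusted p = 2.2e-17) and went from 7.68% and 8.56% to 22.9% and 18.6% of the hexokinase transcripts. *Pfkl* (0.61, edgeR adjusted p = 4.8e-04), *Tpi1*, the isomerase between aldolase and *Gapdh* (0.65, 1.6e-04), and *Eno2* (1.27, 0.00906, and 0.0693 by DESeq2) were also higher. Of the 17 tested genes on the list of other enzymes and isoforms these 5 were higher and 0 lower, with a median log2 difference of 0.28, beside 0.25 for the 10 genes. Of all genes tested 9.11% were higher and 13.7% lower in this comparison.

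**Figure D3:**
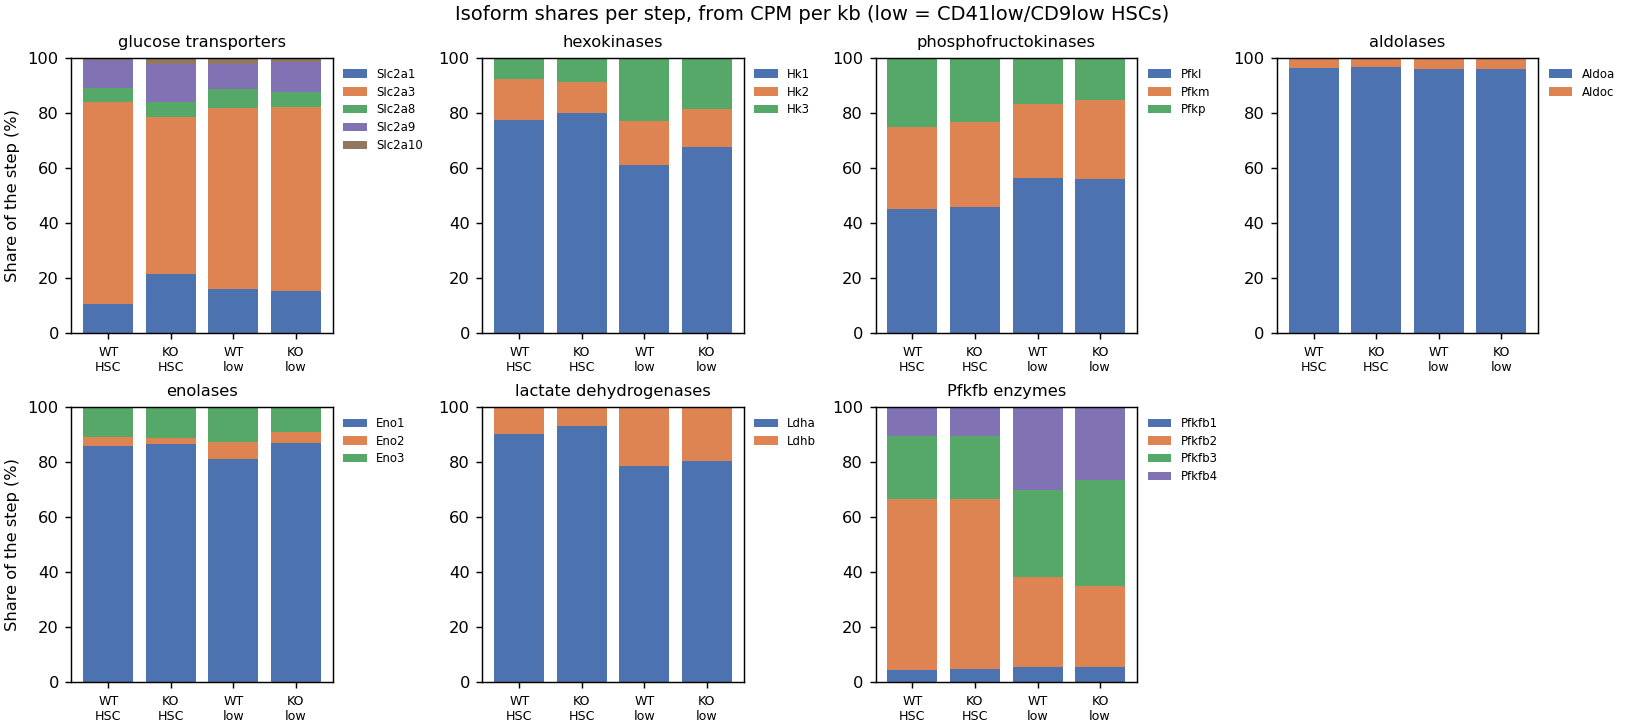
Share of each isoform in its step in percent (vertical axis from 0 to 100), computed from CPM per kb in the 4 libraries, each bar being 1 library. Slc2a3, Hk1, Pfkl, Aldoa, Eno1 and Ldha were the main transcripts of their steps, and the Ldha share was 90.4% and 93.2% in HSCs and 78.6% and 80.3% in CD41low/CD9low HSCs.

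The bifunctional Pfkfb enzymes set the level of fructose 2,6-bisphosphate, which activates phosphofructokinase. *Pfkfb2* was 1.58 lower on the log2 scale in CD41low/CD9low HSCs (-1.58, edgeR adjusted p = 4.0e-18) and *Pfkfb4* 0.85 higher (edgeR adjusted p = 0.00597, and 0.0683 by DESeq2), so that the share of *Pfkfb2* per kb was 62.0% and 61.8% in HSCs and 32.5% and 29.5% in CD41low/CD9low HSCs. In KO against WT none of the 5 tested regulators passed, and none was past a cutoff in either population.

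Around the 10 genes, 9 lists of the wider pathway held 108 further genes. Of those with at least 10 counts, 9 of 91 were called up and 8 down in KO HSCs, and 7 of 89 up and 9 down in KO CD41low/CD9low HSCs, which is below the 14.1% and 10.3%, and the 13.5% and 12.0%, over all genes. Over both populations 2 of 92 were higher and 3 lower in KO by edgeR's test, beside 1.62% and 1.19% of all genes tested.

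The 22 other enzymes and isoforms had 1 gene up and 4 down of 16 in KO HSCs, with a median log2 ratio of -0.21, and 1 up and 1 down of 16 in KO CD41low/CD9low HSCs, with a median of -0.13. *Pgam1*, the phosphoglycerate mutase between *Pgk1* and *Eno1*, had ratios of 2.1 (1.94 to 2.28) and 1.18 (1.04 to 1.35), HSCs first, with an edgeR adjusted p of 0.0889 over both. *Ldhb* had ratios of 0.599 (0.555 to 0.645) and 0.854 (0.788 to 0.926), and *Eno2* 0.727 (0.594 to 0.887) and 0.725 (0.586 to 0.899). Of the other transporters, 3 of 7 were up in KO HSCs, and 1 of 6 up and 2 down in KO CD41low/CD9low HSCs. Over all genes 14.1% were up in HSCs, and 13.5% up and 12.0% down in the other population. Apart from *Slc2a10*, these calls rested on few counts. In HSCs, WT first, *Slc2a6* had 4 and 20 counts and *Slc2a13* 27 and 33, with an interval of 0.88 to 2.61. In CD41low/CD9low HSCs *Slc2a6* had 13 and 0 and *Slc2a12* 0 and 20. *Slc2a8*, a transporter of internal membranes, had ratios of 0.799 (0.695 to 0.917) and 0.775 (0.631 to 0.953), and *Slc2a9* 1.05 (0.983 to 1.13) and 1.19 (1.05 to 1.35). The scarce *Slc2a10*, with 84 to 236 counts, was up in KO HSCs at 2.35 (1.88 to 2.94) and down in KO CD41low/CD9low HSCs at 0.596 (0.439 to 0.808).

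Genes beside and after glycolysis followed no single direction. Of 17 genes of pyruvate and lactate handling 1 was up and 0 down in KO HSCs, and 2 were up and 2 down in KO CD41low/CD9low HSCs. *Mpc1*, a subunit of the mitochondrial pyruvate carrier, stood at 0.662 (0.59 to 0.743) in HSCs but at 1.61 (1.31 to 1.99) in the other population. *Pdk2*, a kinase that inhibits pyruvate dehydrogenase, had 1.18 (1.05 to 1.33) and 1.56 (1.26 to 1.93), and *Pdhx*, a component of that dehydrogenase, 1.02 (0.954 to 1.1) and 0.575 (0.508 to 0.65). None of the 7 genes of the pentose phosphate pathway was past a cutoff. Its transketolase gene *Tkt* had ratios of 0.678 (0.666 to 0.691) and 0.886 (0.864 to 0.909).

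Of the 16 genes of gluconeogenesis and glycogen 13 were tested over both populations, and 2 were lower in KO, beside 1.19% of all genes tested. *Fbp1*, the phosphatase that opposes phosphofructokinase, had 1047 counts in WT and 394 in KO HSCs, and 479 and 312 in the corresponding CD41low/CD9low libraries. Its ratios were 0.464 (0.413 to 0.522) and 0.434 (0.375 to 0.502), and its log2 change was -1.16 (edgeR adjusted p = 6.4e-04, and 0.0717 by DESeq2). *Pygl*, the liver type glycogen phosphorylase, had ratios of 0.615 (0.59 to 0.64) and 0.787 (0.745 to 0.83) and a log2 change of -0.53 (edgeR adjusted p = 0.0279, and 0.162 with the bias-adjusted form).

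Of the 9 genes of the HIF pathway none passed in KO against WT. Between the populations 2 were higher and 2 lower, where 9.11% of all genes tested were higher and 13.7% lower. The 3 of them other than *Arnt* are named here after their values were seen. *Hif1a*, the oxygen-regulated subunit, was 0.77 lower on the log2 scale in CD41low/CD9low HSCs (-0.77, edgeR adjusted p = 4.0e-05), and its partner *Arnt* likewise (-0.78, edgeR adjusted p = 1.5e-04). *Hif3a*, a further alpha subunit, was 1.02 higher (edgeR adjusted p = 0.00429, and 0.0582 by DESeq2), and the prolyl hydroxylase gene *Egln2* 0.59 higher (edgeR adjusted p = 0.00281, and 0.0533 by DESeq2). *Egln1*, the main prolyl hydroxylase of HIF, had KO/WT ratios of 1.52 (1.41 to 1.63) and 1.25 (1.12 to 1.41), and *Egln3*, another, 0.975 (0.863 to 1.1) and 0.514 (0.399 to 0.66). The 14 other HIF target genes did not move together, with 3 up and 3 down of 13 in KO HSCs and 1 up and 1 down of 12 in KO CD41low/CD9low HSCs. *Vegfa*, the endothelial growth factor, fell to 0.493 (0.443 to 0.549) and 0.506 (0.443 to 0.577), a log2 change of -1.01 (edgeR adjusted p = 0.00281, but 0.126 by DESeq2 and 0.0608 with the bias-adjusted form). *Ndrg1*, a stress and differentiation gene, rose to 1.67 (1.62 to 1.71) and 1.82 (1.72 to 1.93), a log2 change of 0.79 (edgeR adjusted p = 3.0e-05). *Bhlhe40* had ratios of 0.468 (0.397 to 0.55) and 0.698 (0.53 to 0.92).

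*Txnip* is induced by glucose through the Mondo factors and restrains glucose uptake. Of the 4 genes tested on its list it alone passed, where 1.62% of all genes tested were higher in KO. It had 57114 counts in WT and 68229 in KO HSCs, and 23200 and 43396 in the corresponding CD41low/CD9low libraries. Its ratios were 1.47 (1.46 to 1.49) and 1.25 (1.23 to 1.27), and its log2 change was 0.43 (edgeR adjusted p = 0.0418, and 0.304 with the bias-adjusted form). *Mlxip*, the Mondo factor of many tissues, had ratios of 1.48 (1.42 to 1.54) and 1.05 (0.976 to 1.12), and *Arrdc4*, a relative of *Txnip*, 1.22 (1.16 to 1.27) and 1.21 (1.13 to 1.29). The 4 measured genes of this list had ratios above 1 in both populations, with medians of 0.42 and 0.29 on the log2 scale.

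**Figure D4:**
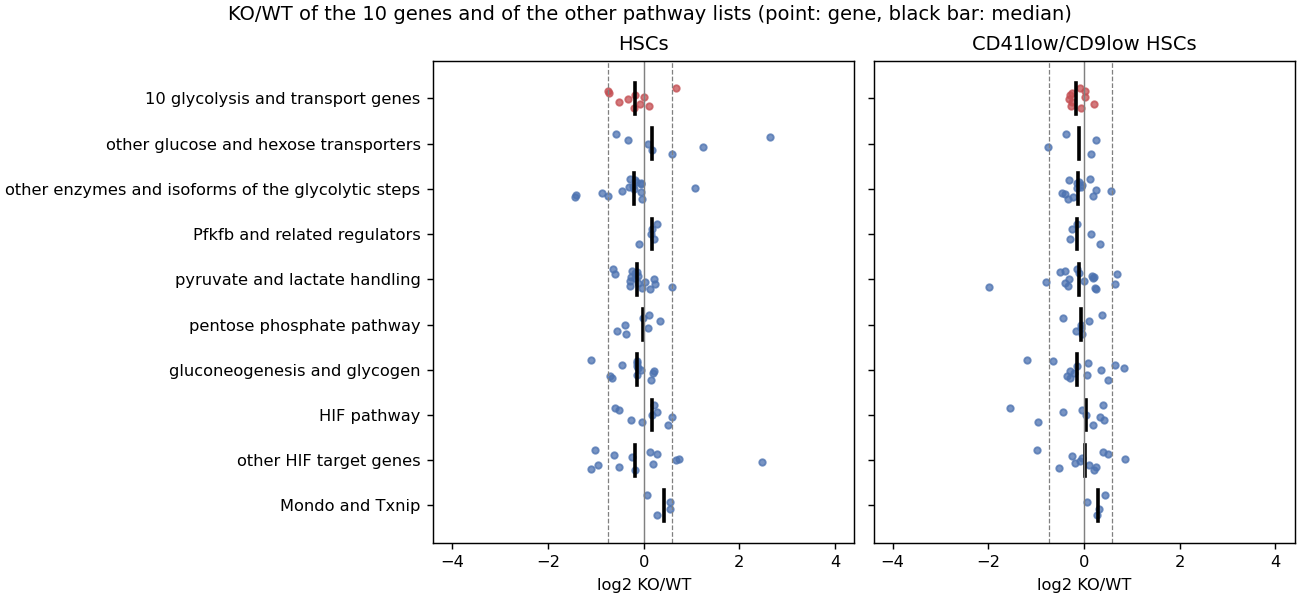
log2 KO/WT (horizontal axis) of each gene with at least 10 counts in 1 library of the pair and at least 1 in the other, by list, in HSCs (left) and CD41low/CD9low HSCs (right), with black bars for the medians and dashed lines at the cutoffs. The 10 glycolysis and transport genes (red) had medians of -0.19 and -0.17, and the Mondo and Txnip list medians of 0.42 and 0.29.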

How the data were processed

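RNA was sequenced with a TruSeq Stranded mRNA kit. The authors aligned the reads to mm10 with TopHat2 2.0.10, used SAMtools and HTSeq, and deposited raw counts per Ensembl gene. The HTSeq version, strand setting and annotation release are not given in the sources used here. The HSC and CD41low/CD9low HSC tables list different genes, so that fits over the 4 libraries used the 37140 shared genes. Lines without a gene were left out of the totals, those assigned to no feature being 60.1 to 105.3 for every 100 gene counts. A count of 3 corresponds to 0.059 to 0.236 CPM.

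Ratios used size factors by the median of ratios within a pair and genes with at least 10 counts in 1 library. Intervals for the difference of log2 ratios were Poisson intervals (95%). The additive model used edgeR 4.0.16 (quasi-likelihood, TMM, Benjamini-Hochberg adjustment, at least 10 counts in 1 library, R 4.3.3). SEs were derived from its p-values. Nothing in the labels gives separate samples of 1 group, so p-values measure the spread left by an additive model, which may be technical. Names, coordinates and principal transcripts came from GENCODE M21 (GRCm38). Scripts were tested on simulated data. The genes and lists were chosen with earlier results of these data known. All 10 genes were named. Of each other list, up to 3 genes were named, those with the largest mean absolute log2 ratio and at least 100 counts in 1 library of each pair, and isoforms and transporters of the same steps by level. Alternatives were 10 for the ratios and 7 for the model, including DESeq2 1.42.0 and limma 3.58.1. A further marker list is not reported here.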

Additional observations from a re-analysis of the deposited data

Results flagged for a closer look

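For 4 of the 10 genes the KO/WT ratio lay on opposite sides of 1 in the populations, each with 1 library per genotype, and the difference was not tested. The share of all genes with ratios on opposite sides of 1 was not computed, so this number cannot be read as particular to the 10 genes. The log2 ratio in HSCs and in CD41low/CD9low HSCs was 0.68 and -0.08 for *Slc2a1* (difference -0.76), -0.74 and 0.02 for *Slc2a3* (0.75), -0.08 and 0.20 for *Eno1* (0.27), and 0.12 and -0.27 for *Pkm* (-0.39). For *Eno1* and *Pkm* the counting intervals of both ratios left out 1. In HSCs, 18 of 19 immediate-early genes were called down in the same KO library, where 10.3% of all genes were. In CD41low/CD9low HSCs 11 of 12 granulocyte and monocyte markers were called down, where 12.0% of all genes were. The part of either set in these values was not tested.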

How the results depend on the processing

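The median log2 ratio of the 10 genes kept its value within counting error, and *Slc2a1* stayed the only gene up in KO HSCs, under all 10 alternatives. The count down in KO HSCs was 2 rather than 1, with *Hk2* added, under total-count scaling, under the correction for exon length and with a cutoff of 1/1.5. The correction for exon length also took 6 ratios in HSCs past their counting interval, none by more than 1.5 times and none across 1. In CD41low/CD9low HSCs no alternative took one of the 10 past a cutoff. Over all genes, the numbers up and down in KO HSCs (2248 and 1639) were 4354 and 2649 with at least 1 count, 1431 and 792 with at least 50, and 535 and 171 with at least 1000. In CD41low/CD9low HSCs (1998 and 1788) the number up was 3121 with at least 1 count, and the numbers were 982 and 702 with at least 50 and 105 and 14 with at least 1000. In the additive model, 263 genes were higher and 194 lower in KO, against 145 and 95 with RLE factors, 80 and 48 with at least 50 counts, 70 and 28 by DESeq2, and 92 and 35 with bias-adjusted deviances, the last chosen after seeing the data. limma-voom passed 1 of the 10 genes as lower, *Hk2* (-0.53, adjusted p = 0.0493). Between populations, 1481 genes were higher and 2235 lower, against 879 higher by DESeq2 and 1861 and 1831 with total counts, where *Hk2* passed (0.46, adjusted p = 0.0224). The near-zero log2 change of *Aldoa* in KO changed sign, to 0.00 with RLE factors, at least 50 counts and DESeq2 and 0.01 with at least 1 count. The causes were not tested. Population is the block of the additive model. Beyond that block, no paired analysis was possible because each genotype and population had 1 library, and no library could be left out within a pair. Depth was no limit for the 10 genes, but it was for the less abundant transporters.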
